A study of Mus musculus with 42 samples.

Results

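A set of 9 retinoid genes was followed through the series. It held Aldh1a1, Aldh1a2, Aldh1a3, Rdh10, Crabp1, Crabp2, Cyp26b1, Rara and Rarb, out of 52636 gene lines in each culture file. The genes were picked for their place in retinoic acid synthesis and response and for what these same culture contrasts and peak lists had shown of them, so their levels, fold changes and peaks are given as a description, without a test.

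The question behind the series was how bringing Brwd1, a bromodomain and WD-repeat gene of the trisomic segment, back to the normal number of copies affects the Ts65Dn mouse, a Down syndrome model that carries an extra copy of the distal part of chromosome 16 and the proximal part of chromosome 17. RNA-seq counts came from forebrain neuronal cultures of embryonic day 16, which per the methods were cortices plated embryo by embryo with fetal bovine serum and moved the day after to medium without serum, with AraC against dividing glia and the B27 supplement, whose vitamin A content is not given in the sources used here. Per the methods the cells were collected for RNA only after days in culture, so the RNA is not that of fresh embryonic forebrain. There were 3 libraries each of euploid, Ts65Dn and Ts65Dn;Brwd1+/- cultures, and the labels call all 9 pooled male and female. Chromatin was measured in adult male hippocampus of the same 3 genotypes, by SMARCA2/4 ChIP-seq at 6 to 8 weeks with 4 immunoprecipitated libraries per genotype, each of pooled hippocampi, and by ATAC-seq of sorted NeuN-positive neuronal nuclei with 3 libraries per genotype. These assays were available as 1 merged peak list per genotype, so peaks had no replicate error, and culture RNA and adult chromatin came from different tissue and ages. Both trisomic genotypes carry the extra segment, and the third genotype was bred from Ts65Dn mothers and Brwd1+/- fathers.

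The third group was checked against its label. Brwd1 had 89.4 CPM ± 3.66 (SD, n = 3) in euploid, 127 ± 2.13 in Ts65Dn and 139 ± 12.3 in the libraries labelled Ts65Dn;Brwd1+/-. Its counts were thus not lower in the group that should have 1 intact copy less. The paper describes the allele as a mutant form of Brwd1, and counts over the whole gene do not show which allele the RNA came from. By qPCR in embryonic forebrain, with primers kept for the rescue, the paper reports that the excess of Brwd1 was corrected in this genotype. Xist lay between 0.526 and 1.12 CPM in euploid, between 0.790 and 1.10 CPM in Ts65Dn and between 1409 and 1982 CPM in the labelled Ts65Dn;Brwd1+/- libraries, whereas the summed level of 4 Y-linked genes was 194 to 223, 207 to 216 and 0.0557 to 0.149 CPM. The sex of the embryos thus went with the third group, and what belongs to sex and what to the Brwd1 allele cannot be told apart. It is called the labelled Ts65Dn;Brwd1+/- group from here on. CPM are read counts scaled to a common library size by TMM, gene totals ran from 17270070 to 25892802 counts per library, and 17173 genes had enough counts to be fitted.

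Retinoic acid is made from retinol in 2 oxidations. Retinol dehydrogenases, of which RDH10 is the main one in the embryo, give retinaldehyde, and the ALDH1A enzymes turn this into retinoic acid without return. Retinoic acid is carried in the cytoplasm by CRABP proteins, destroyed by CYP26 enzymes and sensed in the nucleus by the receptors RARA, RARB and RARG, which bind DNA with an RXR partner at direct repeats of a short site and call in corepressors or coactivators. In the developing forebrain it acts on patterning and neuron differentiation, ALDH1A1 is known from a class of midbrain dopaminergic neurons, ALDH1A2 from the meninges and ALDH1A3 from the lateral ganglionic eminence.

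The upstream sequence of Rarb shows the kind of element through which these receptors act, and it is printed beside that of Aldh1a1, the member with the greatest differences between Ts65Dn and the other groups among those that passed the count filter. Promoters of 6 of the 9 genes could be matched in RefSeq (GRCm38.p6), as 10 entries of 300 bases from 250 before to 50 after a start. They were searched on both strands for direct repeats of the receptor site, written as AGGTCA or as AGTTCA, further as GGGTCA and also GGTTCA, with 5, 2 or 1 letters in between (DR5, DR2 and DR1). The lines that follow give the 250 bases before the start of Rarb (chr14:16575477-16575726, minus strand) and before the inner of the 2 starts of Aldh1a1 (chr19:20601718-20601967, plus strand), 5′ to 3′, with a direct repeat in capitals.
Rarb promoter: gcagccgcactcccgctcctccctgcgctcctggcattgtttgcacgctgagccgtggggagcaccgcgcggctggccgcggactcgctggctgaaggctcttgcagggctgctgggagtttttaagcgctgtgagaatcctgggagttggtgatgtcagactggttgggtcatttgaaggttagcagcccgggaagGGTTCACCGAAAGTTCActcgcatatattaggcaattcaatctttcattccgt
Aldh1a1 promoter: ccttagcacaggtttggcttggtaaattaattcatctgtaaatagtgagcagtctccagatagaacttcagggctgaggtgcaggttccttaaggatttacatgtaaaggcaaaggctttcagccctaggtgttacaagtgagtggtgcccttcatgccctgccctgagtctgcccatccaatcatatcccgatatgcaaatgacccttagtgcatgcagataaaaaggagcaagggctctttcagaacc
Rarb held a DR5, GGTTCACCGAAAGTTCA, which began 53 bases before the start. No other of the 10 entries held a DR5, DR2 or DR1. A DR5 stood in 32 of 32851 RefSeq promoters (0.0974%), a DR2 in 88 (0.268%) and a DR1 in 73 (0.222%). Of the pathway genes outside the set only Cyp26a1 and Dhrs3 were searched. Cyp26a1, the other main retinoic acid hydroxylase and a well-known retinoic acid target, held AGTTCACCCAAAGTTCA 32 bases before its start, and the 3 entries of Dhrs3 held no DR5, DR2 or DR1. A match describes the letters and not a site in use.

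The synthesis enzymes held the greatest differences of the set. Aldh1a1 (ENSMUSG00000053279, chr19:20492715-20643465, plus strand) had 11.2, 11.6 and 10.9 CPM in the 3 euploid libraries, 66.1, 71.8 and 73.0 in Ts65Dn and 5.93, 6.24 and 7.13 in the labelled Ts65Dn;Brwd1+/- libraries. The 3 groups did not overlap, with Ts65Dn far above the others and the labelled Ts65Dn;Brwd1+/- group below euploid. In bulk cultures fewer cells of a type and less RNA per cell cannot be told apart, here and in all comparisons of the cultures. Ts65Dn was 6.25-fold above euploid (log2 fold change 2.64, SE 0.09). The labelled Ts65Dn;Brwd1+/- group was 10.9-fold below Ts65Dn (log2 -3.44, SE 0.09) and 1.74-fold below euploid (log2 -0.80, SE 0.09). Aldh1a3 (ENSMUSG00000015134, chr7:66390890-66427517, minus strand), the relative of Aldh1a1 that also makes retinoic acid, went the other way. It had 5.83, 5.70 and 5.51 CPM in euploid, 2.08, 1.73 and 1.41 in Ts65Dn and 7.49, 6.57 and 6.91 in the labelled Ts65Dn;Brwd1+/- libraries. Again no group overlapped another, here with Ts65Dn at the bottom. Ts65Dn was 3.24-fold below euploid (log2 -1.70, SE 0.15) and the labelled Ts65Dn;Brwd1+/- group 4.00-fold above Ts65Dn (log2 2.00, SE 0.15).

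Aldh1a2 (ENSMUSG00000013584, chr9:71215789-71296243, plus strand), the main retinoic acid enzyme of the early embryo, was close to absent. It had 5, 12 and 2 counts in the euploid libraries, 1 count in each Ts65Dn library and 0, 0 and 1 count in the labelled Ts65Dn;Brwd1+/- libraries, and did not pass the filter on low counts. Over the groups, 19 counts in euploid stood against 3 in Ts65Dn, a 6.53-fold ratio per effective library size with an exact binomial 95% interval from 1.92 to 34.5 that covers counting error only. Most of the euploid counts were in replicate 2, which was also the library with the highest Ttr.

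Rdh10 (ENSMUSG00000025921, chr1:16105774-16133734, plus strand), the retinol dehydrogenase of the set, was the most abundant member per exon length in every group. It had 72.3, 69.1 and 82.5 CPM in euploid, 109, 129 and 138 in Ts65Dn and 36.7, 42.7 and 44.2 in the labelled Ts65Dn;Brwd1+/- libraries. As with Aldh1a1, no groups overlapped and the order was Ts65Dn, euploid, labelled Ts65Dn;Brwd1+/-. Its differences were smaller, 1.68-fold up in Ts65Dn against euploid (log2 0.75, SE 0.11) and 3.04-fold down in the labelled Ts65Dn;Brwd1+/- group against Ts65Dn (log2 -1.61, SE 0.11).

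The cytoplasmic binding proteins and the breakdown enzyme differed little. Crabp1 (ENSMUSG00000032291, chr9:54764748-54773110, plus strand), which binds retinoic acid in the cytoplasm, had 6.50, 5.66 and 6.60 CPM in euploid, 4.53, 5.24 and 5.43 in Ts65Dn and 5.49, 5.96 and 6.31 in the labelled Ts65Dn;Brwd1+/- libraries. Its Ts65Dn libraries lay just below the others, by 1.24-fold against euploid (log2 -0.31, SE 0.12). Crabp2 (ENSMUSG00000004885, chr3:87948666-87953376, plus strand), which hands retinoic acid to its receptors, had 0.319 to 0.658 CPM in euploid, 0.346 to 0.572 in Ts65Dn and 0.223 to 0.535 in the labelled Ts65Dn;Brwd1+/- libraries. With 33, 33 and 27 counts over the groups all 3 overlapped, and the counting interval of the ratio of Ts65Dn to euploid ran from 0.580 to 1.62. Cyp26b1 (ENSMUSG00000063415, chr6:84571414-84593908, minus strand), the retinoic acid hydroxylase of the set, had 7.14, 8.47 and 6.69 CPM in euploid, 6.82, 8.94 and 8.25 in Ts65Dn and 6.91, 4.23 and 5.11 in the labelled Ts65Dn;Brwd1+/- libraries. Its groups overlapped in every comparison, and the fitted difference of the labelled Ts65Dn;Brwd1+/- group from Ts65Dn was -0.55 on the log2 scale (SE 0.18) and ran from -0.75 to -0.41 over 16 alternatives.

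**Figure D1:**
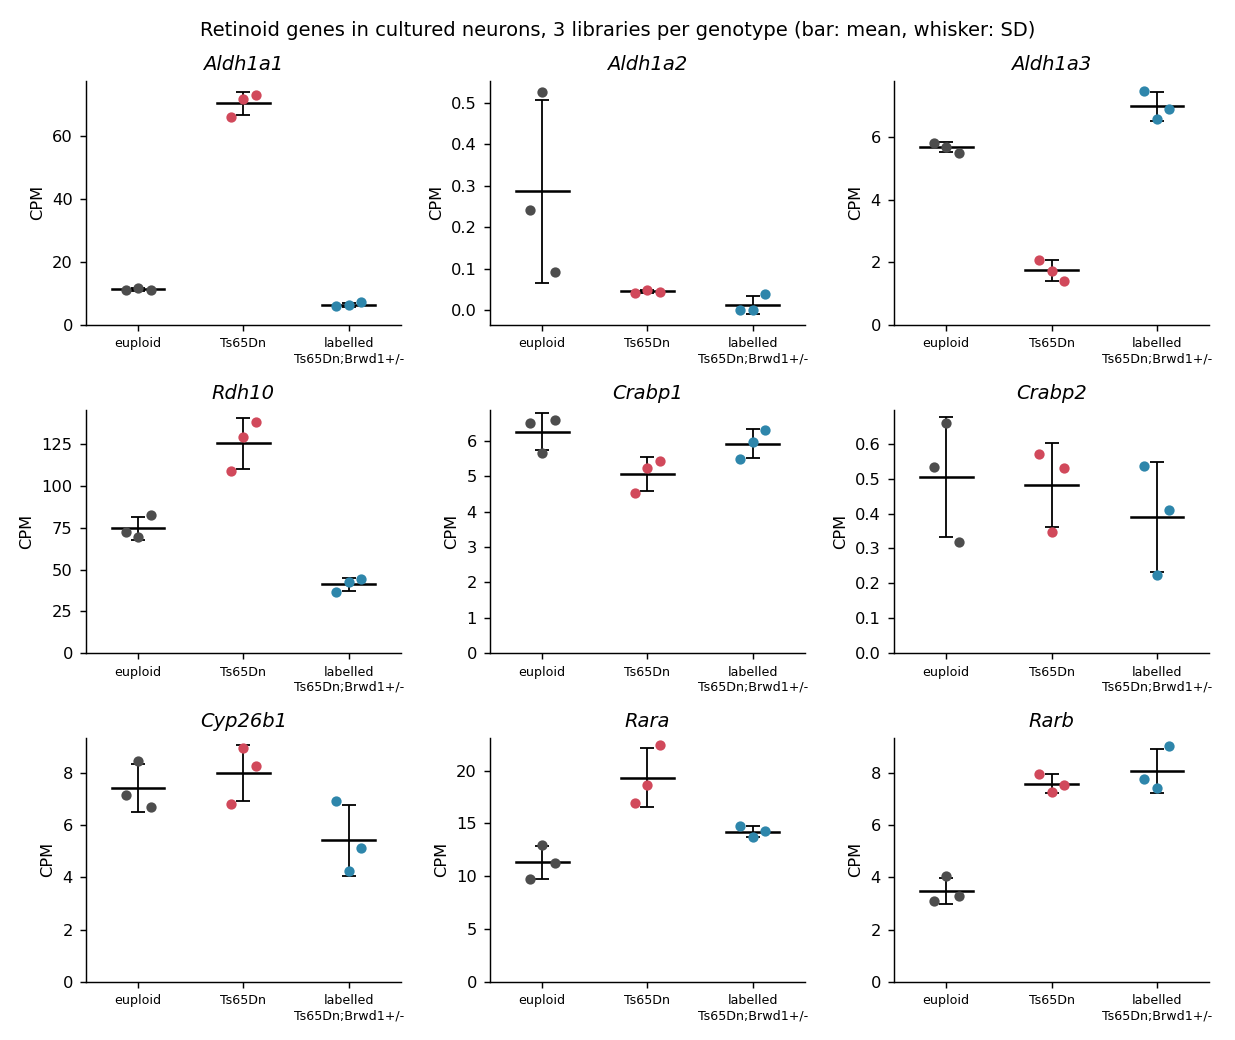
Each panel plots the CPM of 1 retinoid gene (vertical axis, linear) in the 9 culture libraries by genotype (horizontal axis), with points for libraries, bars for means and whiskers for the SD. Aldh1a1 and Rdh10 peaked in the 3 Ts65Dn libraries, Aldh1a3 was lowest there, and Rarb was at 7.26 to 9.03 CPM in both trisomic groups against 3.11 to 4.04 in euploid.

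The receptors were higher in Ts65Dn than in euploid, and in the labelled Ts65Dn;Brwd1+/- group Rara was lower again whereas Rarb was not. Rara (ENSMUSG00000037992, chr11:98927818-98974942, plus strand) had 9.76, 12.9 and 11.2 CPM in euploid, 16.9, 18.6 and 22.5 in Ts65Dn and 14.7, 13.7 and 14.3 in the labelled Ts65Dn;Brwd1+/- libraries. No groups overlapped, and the labelled Ts65Dn;Brwd1+/- libraries sat between the others. The fitted differences were 1.71-fold up in Ts65Dn (log2 0.77, SE 0.13) and 1.36-fold down from there (log2 -0.44, SE 0.13). Rarb (ENSMUSG00000017491, chr14:16430839-16819156, minus strand), itself a retinoic acid target, had 3.11, 4.04 and 3.28 CPM in euploid, 7.96, 7.26 and 7.55 in Ts65Dn and 7.76, 7.41 and 9.03 in the labelled Ts65Dn;Brwd1+/- libraries. Both trisomic groups lay above euploid and overlapped each other, at 2.18-fold (log2 1.13, SE 0.13) and 2.32-fold (log2 1.22, SE 0.13) the euploid level. The last exons of Rarb overlap the end of Top2b on the other strand, and whether the counting used strand is not given in the sources used here. Top2b had 17893, 15375 and 17536 counts over the 3 groups, and the part of its reads in the Rarb values was not tested.

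Of the 8 members with enough counts, 4 were past an adjusted p of 0.05 upward and 1 downward in Ts65Dn against euploid, where 46.7% of all tested genes were past it. In the labelled Ts65Dn;Brwd1+/- group against Ts65Dn it was 1 upward and 4 downward, with 58.1% of all tested genes past it, and against euploid 1 upward and 2 downward, with 29.2%. The median log2 fold change of the 8 was 0.43, -0.36 and -0.20 in these comparisons, against 0.04, 0.00 and -0.02 over all tested genes. Counted by libraries that did not overlap, 4 of the 9 members were higher and 3 lower in Ts65Dn than in euploid, where 56.8% of tested genes did not overlap (31.2% higher and 25.5% lower). Between the trisomic groups 2 were higher and 4 lower in the labelled Ts65Dn;Brwd1+/- group, against 68.4% (33.6% higher and 34.9% lower), and against euploid 3 were higher and 3 lower, against 45.9% (22.3% and 23.6%). The members were chosen on these contrasts, and nothing is read from the counts. Both comparisons with Ts65Dn use the same Ts65Dn libraries, so opposite signs in them are not separate observations.

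**Figure D2:**
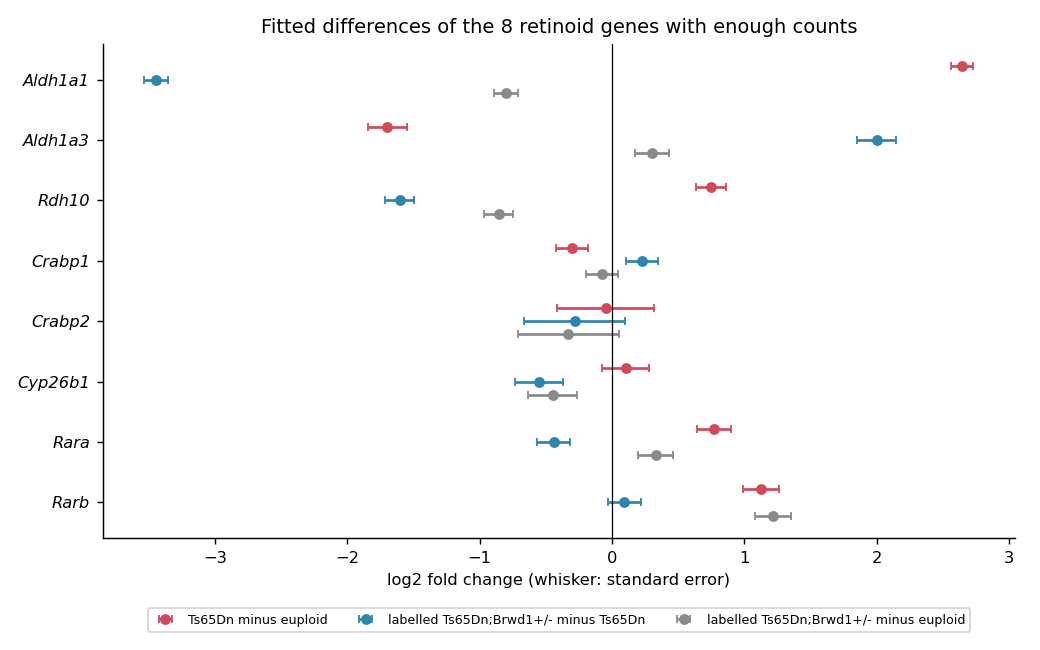
Fitted log2 fold changes (horizontal axis) of the 8 retinoid genes that passed the filter (vertical axis), with the standard error as whisker and 1 colour per comparison. Aldh1a1 spans from 2.64 to -3.44, Aldh1a3 mirrors it between -1.70 and 2.00, and Rarb is near 0 (0.09) between the trisomic groups.

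In the order of the members per exon length Aldh1a1 changed its place most. In euploid the RPKM, CPM per kb of exon, ran from Rdh10 (17.9 ± 1.67, SD, n = 3) over Crabp1 (7.80 ± 0.65), Rara (2.59 ± 0.36), Aldh1a1 (2.28 ± 0.07), Cyp26b1 (1.39 ± 0.17), Aldh1a3 (1.23 ± 0.03), Rarb (0.660 ± 0.094) and Crabp2 (0.381 ± 0.130) to Aldh1a2 (0.127 ± 0.098). Rara and Aldh1a1 overlapped in this order, as did Cyp26b1 and Aldh1a3. In Ts65Dn Aldh1a1 stood at rank 2 with 14.2 ± 0.75, above all libraries of Crabp1 (6.32 ± 0.59) and Rara (4.43 ± 0.65). In the labelled Ts65Dn;Brwd1+/- group it was at rank 6 with 1.30 ± 0.13, in a run of overlapping neighbours from Rarb (1.53 ± 0.16) over Aldh1a3 (1.51 ± 0.10) to Cyp26b1 (1.01 ± 0.26).

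The genes whose log2 CPM followed Aldh1a1 most closely over the 9 libraries were Postn, Irx5, Spats2l, Ifitm3, Ndrg1, Ctsd, Scara5, Cd81, Tmem176b and Tmem39a, with Pearson r from 0.994 to 0.998. These r rest on the 3 genotypes, since the libraries of a genotype sit together. After the genotype means were taken out, r was 0.94 for Postn, a secreted matrix protein, 0.72 for Ctsd, a lysosomal protease, and -0.63 for Ndrg1. Postn was at 7.12, 84.4 and 2.98 CPM in euploid, Ts65Dn and the labelled Ts65Dn;Brwd1+/- group, and Irx5, a homeobox factor, at 1.42, 28.5 and 0.624. For Aldh1a3 the nearest genes were Amer2, Hrk and Rnf227 (r from 0.995 to 0.997), for Rdh10 Lhfp, Tlr6 and Diaph2 (0.997 to 0.998), for Rara Mapkapk2, Ckb and Hyal2 (0.984 to 0.992) and for Rarb Gm13328, Frmd5 and Nkd1 (0.984 to 0.987). The likeness was looser for Crabp1 (Gm19554, Tk2 and Mtfmt, 0.937 to 0.95), Cyp26b1 (Adamts18, Mamld1 and AU040320, 0.929 to 0.940) and Crabp2 (Gm7642, Psen2 and Pced1b, 0.840 to 0.969). Among the members, Aldh1a1 had r = 0.93 with Rdh10 and -0.99 with Aldh1a3, and 0.57 and -0.50 within genotypes.

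The rest of the pathway was read from a list of 61 genes outside the set, of which 39 had enough counts. In Ts65Dn against euploid 13 of them rose (25.6% of all tested genes did) and 9 fell (21.1%), by the quasi-likelihood test of edgeR with Benjamini-Hochberg adjustment over all tested genes. In the labelled Ts65Dn;Brwd1+/- group against Ts65Dn 12 rose (27.6%) and 17 fell (30.5%), and against euploid 8 rose (14%) and 8 fell (15.2%). The median log2 fold change of the 39 was 0.13, -0.16 and 0.04.

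Of 9 genes of retinol uptake, transport and storage 7 were tested. Ttr, the plasma carrier of the retinol-binding protein complex and an abundant product of choroid plexus, fell in Ts65Dn (log2 -4.31, SE 0.90, edgeR adjusted p = 0.00365), but 1 euploid library set the size of this fall. Its euploid CPM were 59.7, 641 and 76.7 against 11.3 to 15.0 in Ts65Dn, and without euploid replicate 2 the log2 fold change was -2.38. Bco1, which cleaves carotenoids, fell from 0.245, 0.395 and 0.574 CPM in Ts65Dn to 0.178, 0.111 and 0.112 in the labelled Ts65Dn;Brwd1+/- libraries (log2 -1.54, SE 0.55, edgeR adjusted p = 0.0332), a call lost in 6 of 14 alternatives. Rbp4, Stra6, Stra6l and Bco2 passed in no comparison.

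Of the enzymes that oxidise or reduce retinol and retinaldehyde, 15 were listed and 9 tested. In Ts65Dn 4 of these rose and 1 fell against euploid, where 25.6% of all tested genes rose and 21.1% fell. In the labelled Ts65Dn;Brwd1+/- group 1 rose and 4 fell against Ts65Dn, where 27.6% of all tested genes rose and 30.5% fell. Dhrs3, a reductase that turns retinaldehyde back to retinol, had 33.5, 41.6 and 38.7 CPM in euploid, 141, 175 and 198 in Ts65Dn and 17.2, 20.7 and 19.2 in the labelled Ts65Dn;Brwd1+/- libraries. Its log2 fold changes were 2.17 (SE 0.13, edgeR adjusted p = 2.87e-06), -3.17 (SE 0.14, edgeR adjusted p = 2.18e-07) and, against euploid, -1.0 (SE 0.13, edgeR adjusted p = 0.000460), the order that Aldh1a1 and Rdh10 also had. Rdh5, the retinol dehydrogenase known from the visual cycle, went from a mean of 8.63 CPM in euploid to 28.7 in Ts65Dn (log2 1.74, SE 0.15, edgeR adjusted p = 2.47e-05) and to 7.50 in the labelled Ts65Dn;Brwd1+/- group (log2 -1.94, SE 0.15, edgeR adjusted p = 5.20e-06). Dhrs4, a carbonyl reductase, rose by 1.33 (SE 0.16, edgeR adjusted p = 0.000165) and then fell by 1.31 on the log2 scale (SE 0.16, edgeR adjusted p = 6.84e-05). Rdh13, a mitochondrial retinal reductase, went the other way, at -0.66 (SE 0.11, edgeR adjusted p = 0.00105) and 0.43 (SE 0.11, edgeR adjusted p = 0.00636).

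Aldh1a7, a close paralog and neighbour of Aldh1a1 on chromosome 19, had 1.94, 1.76 and 1.41 CPM in euploid, 4.21, 4.84 and 5.87 in Ts65Dn and 0.937, 1.00 and 1.16 in the labelled Ts65Dn;Brwd1+/- libraries. It rose and fell with Aldh1a1 (log2 1.54, SE 0.18, edgeR adjusted p = 0.000150, and log2 -2.25, SE 0.19, edgeR adjusted p = 8.85e-06). Of the 2017 different 50-base words of its transcripts 151 (7.49%) also stand in Aldh1a1, so some of its counts may belong to Aldh1a1, and this share of its change was not tested.

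Cyp26a1, the breakdown enzyme with the DR5 named above, had 0.825, 1.01 and 0.455 CPM in euploid, 1.02, 1.58 and 1.19 in Ts65Dn and 0.669, 0.724 and 0.560 in the labelled Ts65Dn;Brwd1+/- libraries. It did not pass the threshold in Ts65Dn against euploid (log2 0.71, SE 0.29, edgeR adjusted p = 0.0679) and was lower in the labelled Ts65Dn;Brwd1+/- group than in Ts65Dn (log2 -0.96, SE 0.30, edgeR adjusted p = 0.0187), a call lost in 3 of 16 alternatives. Fabp5, which can pass retinoic acid to PPAR receptors, fell from 57.2, 60.2 and 55.7 CPM in euploid to 32.7, 26.5 and 21.1 in Ts65Dn (log2 -1.11, SE 0.14, edgeR adjusted p = 0.000242) and was back at 59.9 to 71.7 CPM in the labelled Ts65Dn;Brwd1+/- libraries (log2 1.27, SE 0.14, edgeR adjusted p = 3.93e-05). Fabp7, the lipid-binding protein of radial glia and astrocytes, was higher in the labelled Ts65Dn;Brwd1+/- group than in both other groups, with 479 to 541 CPM against 287 to 314 in euploid and 233 to 291 in Ts65Dn (log2 0.76, SE 0.10, edgeR adjusted p = 0.000352, and log2 0.96, SE 0.10, edgeR adjusted p = 2.38e-05).

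Among the other receptors, Rarg and the heterodimer partner Rxra differed in the same directions as Rara in Ts65Dn against euploid and between the trisomic groups. Rarg rose in Ts65Dn (log2 0.56, SE 0.11, edgeR adjusted p = 0.00206) and fell in the labelled Ts65Dn;Brwd1+/- group against Ts65Dn (log2 -0.96, SE 0.11, edgeR adjusted p = 4.25e-05), as did Rxra (log2 0.61, SE 0.11, edgeR adjusted p = 0.00164, and log2 -0.66, SE 0.11, edgeR adjusted p = 0.000517). In the labelled Ts65Dn;Brwd1+/- group Rarg was below euploid (log2 -0.40, SE 0.11, edgeR adjusted p = 0.0204). The Rara libraries of that group lay above euploid, but the difference did not pass the threshold, and Rxra overlapped euploid. Rxrb and Rxrg did not pass in Ts65Dn and were higher in the labelled Ts65Dn;Brwd1+/- group than in Ts65Dn, Rxrg with 4.57 to 5.66 CPM against 0.839 to 1.63 (log2 2.01, SE 0.22, edgeR adjusted p = 3.92e-05). Most coregulators went in the other direction. Of 6, the corepressor Ncor1, the coactivators Ncoa1 and Ncoa2 and the ligand-dependent corepressor Nrip1 fell in Ts65Dn and rose in the labelled Ts65Dn;Brwd1+/- group, Ncoa1 for example by small steps (log2 -0.44, SE 0.07, edgeR adjusted p = 0.000633, and log2 0.47, SE 0.07, edgeR adjusted p = 0.000180). The call of Nrip1 in Ts65Dn was lost without euploid replicate 1 or 2. Ncoa3 did not pass in Ts65Dn and was higher in the labelled Ts65Dn;Brwd1+/- group than in both others.

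Of 23 listed genes known to respond to retinoic acid 10 were tested. In Ts65Dn 5 rose and 2 fell, where 25.6% of all tested genes rose and 21.1% fell. In the labelled Ts65Dn;Brwd1+/- group against Ts65Dn 2 rose and 8 fell, where 27.6% of all tested genes rose and 30.5% fell. Rarres1, known as a retinoid-induced gene, rose from 0.364 to 0.395 CPM in euploid to 1.51 to 1.88 in Ts65Dn (log2 2.15, SE 0.21, edgeR adjusted p = 4.81e-05). Zfp503, a zinc finger repressor of forebrain and striatum, rose 3.42-fold (log2 1.78, SE 0.12, edgeR adjusted p = 5.17e-06) and stayed above euploid in the labelled Ts65Dn;Brwd1+/- group (log2 1.17, SE 0.12, edgeR adjusted p = 0.000107). Rai14 (log2 1.33, SE 0.12, edgeR adjusted p = 3.46e-05) and the homeobox gene Meis1 (log2 1.26, SE 0.11, edgeR adjusted p = 2.90e-05) rose as well and fell again between the trisomic groups. Tgm2, a transglutaminase induced by retinoic acid in many cells, fell most in the labelled Ts65Dn;Brwd1+/- group, to 4.5 to 5.64 CPM from 16.4 to 25.4 in Ts65Dn (log2 -1.90, SE 0.18, edgeR adjusted p = 1.49e-05). Meis2 (log2 -0.46, SE 0.08, edgeR adjusted p = 0.00192, then log2 0.90, SE 0.08, edgeR adjusted p = 1.48e-05) and Ret, the receptor subunit for GDNF (log2 -0.76, SE 0.16, edgeR adjusted p = 0.00415, then log2 1.05, SE 0.16, edgeR adjusted p = 0.000346), went against the rest. Nr2f1, Nr2f2 and Rarres2 did not pass in Ts65Dn and fell in the labelled Ts65Dn;Brwd1+/- group against both others. The Hox genes of the list, the classical hindbrain targets, had between 0 and 4 counts each over all 9 libraries.

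**Figure D3:**
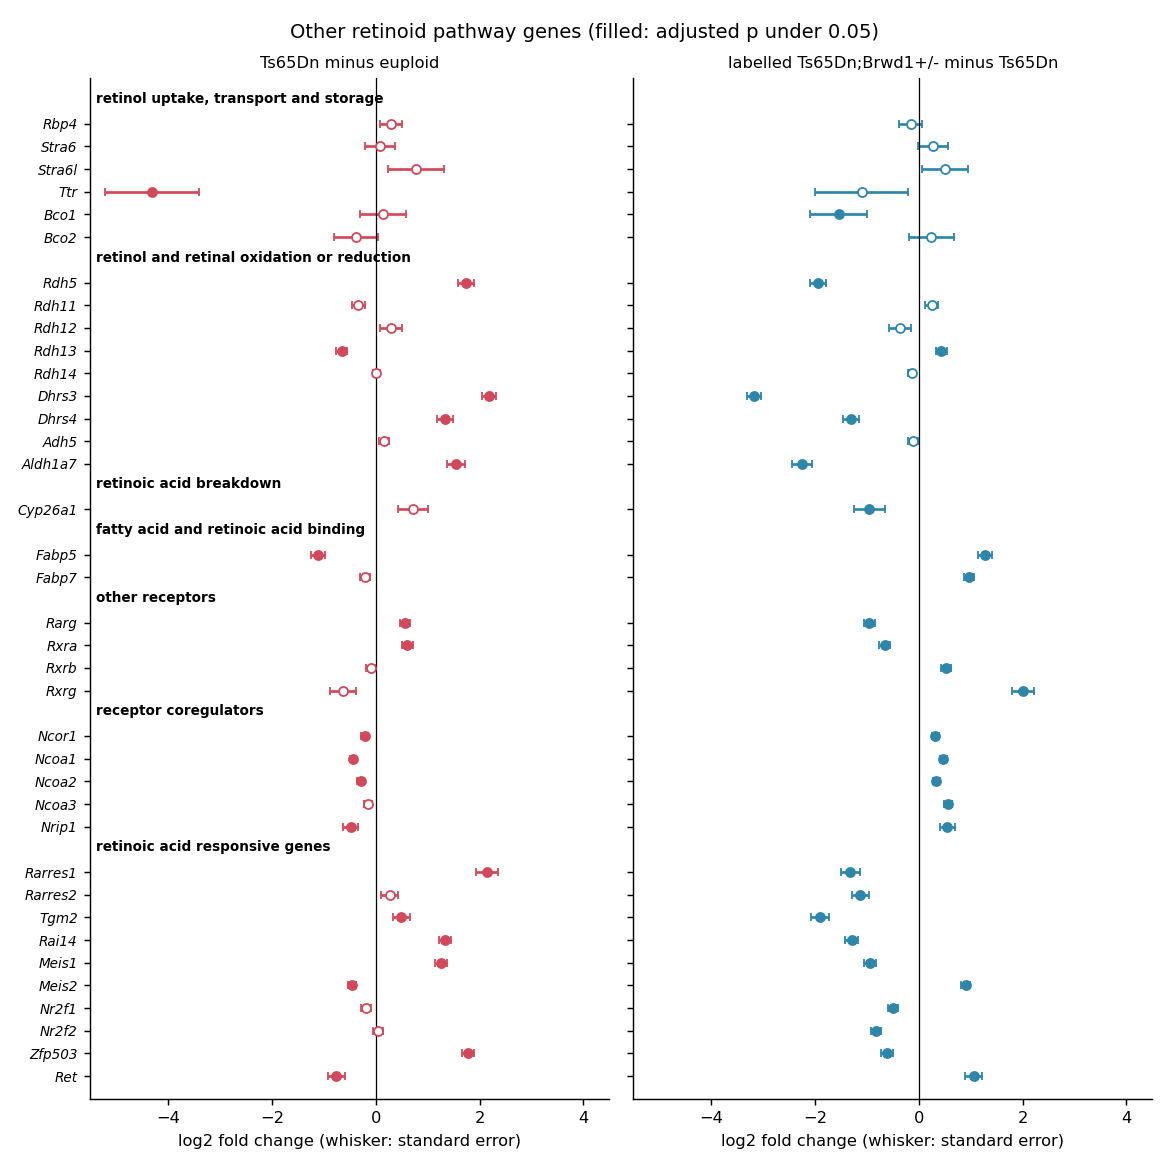
Log2 fold changes (horizontal axis, whisker for the standard error) of the tested pathway genes that are reported here, by role (vertical axis), in Ts65Dn against euploid (left) and in the labelled Ts65Dn;Brwd1+/- group against Ts65Dn (right), with filled points for an adjusted p under 0.05. Of the genes drawn, Dhrs3 (2.17) and Rarres1 (2.15) rose most in Ts65Dn, Dhrs3 (-3.17) fell most between the trisomic groups, and 4 coregulators passed the test in the direction opposite to Dhrs3 in both panels.

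Markers of cell types differed between the same groups. Beside the counts that follow, 25.6% of all tested genes rose and 21.1% fell in Ts65Dn against euploid. Between the trisomic groups 27.6% were higher and 30.5% lower in the labelled Ts65Dn;Brwd1+/- group. The summed level of 8 pan-neuronal genes was 3858 to 4820 CPM in euploid, 1004 to 2559 in Ts65Dn and 3850 to 4968 in the labelled Ts65Dn;Brwd1+/- libraries, and 7 of 8 fell in Ts65Dn. For 8 telencephalic and cortical genes it was 506 to 628, 212 to 303 and 632 to 760 CPM, and for 10 genes of GABAergic interneurons 536 to 590, 128 to 221 and 946 to 1055 CPM. All 3 sums were lowest in Ts65Dn, as Aldh1a3 was and where Aldh1a1 was highest. The midbrain and dopaminergic list, which ALDH1A1 neurons belong to, had 21.5 to 22, 36.9 to 51.1 and 13.8 to 17 CPM, with 6 of 9 tested genes up and 2 down in Ts65Dn. The midbrain transcription factors Lmx1b, Foxa1, Foxa2, En1 and En2 rose in Ts65Dn, Lmx1b from a mean of 0.390 to 8.20 CPM and Foxa2 from 0, 1 and 0 counts to 29, 25 and 42, and all 5 fell in the labelled Ts65Dn;Brwd1+/- group against Ts65Dn. Th, the rate-limiting enzyme of dopamine synthesis, rose in Ts65Dn from a mean of 0.0920 to 0.478 CPM (log2 2.30, SE 0.61, edgeR adjusted p = 0.0118) and was higher again, at 1.10 CPM, in the labelled Ts65Dn;Brwd1+/- group. The dopamine transporter Slc6a3, at 0.993 CPM in euploid and 0.523 in Ts65Dn, did not pass, Pitx3 was at or under 3 counts in the Ts65Dn group, and Slc18a2 and Lmx1a were the 2 that fell. Choroid plexus genes summed to 58.4 to 86.7, 192 to 248 and 30.7 to 43.0 CPM. In Ts65Dn this sum was carried by Folr1 and Otx2, with means of 121.5 and 63.0 CPM against 34.4 and 3.69 in euploid, while Aqp1 fell and the other 4 tested genes did not pass. The sums were, for endothelial and pericyte genes, 138 to 162, 735 to 968 and 137 to 187 CPM with Cldn5 at 0 throughout, and for genes of meninges and fibroblasts, 130 to 152, 217 to 290 and 162 to 173 CPM, where 5 of 10 rose and 4 fell in Ts65Dn. The endothelial sum was carried by Kdr, with a mean of 755 CPM in Ts65Dn. The rise of the meningeal and fibroblast sum came mostly from Col1a1, with means of 23.9 CPM in euploid and 126.5 in Ts65Dn. The 4 that fell were Col3a1, Dcn, Lum and Slc6a13, Dcn from a mean of 12.2 to 1.28 CPM. Striatal genes were highest in the labelled Ts65Dn;Brwd1+/- group (219 to 236 CPM against 73.3 to 80.9 in euploid and 35.3 to 72.8 in Ts65Dn), and microglial genes summed to 7.51 to 14 CPM in euploid, 3.80 to 5.76 in Ts65Dn and 1.12 to 1.83 in the labelled Ts65Dn;Brwd1+/- libraries, with no overlap. The sum of 8 astrocyte genes ranged from 3014 to 4227 CPM over all libraries, with members on both sides: 4 rose in Ts65Dn (Aqp4, Aldh1l1, Gja1 and S100b) and 2 fell (Slc1a2 and Slc1a3), and against Ts65Dn 3 rose and 5 fell in the labelled Ts65Dn;Brwd1+/- group. The part of these cell types in the differences of the retinoid genes was not tested.

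In adult hippocampus, peaks named 3 of the 9 genes, Rdh10, Rara and Rarb. The neuronal ATAC lists of euploid, Ts65Dn and Ts65Dn;Brwd1+/- named 1, 3 and 2 of them, where they named 53.3, 66.0 and 65.6% of the genes tested in the cultures. The SMARCA2/4 lists named 3, 0 and 1 of them, against 38.6, 4.14 and 4.89%, and held 22667, 1290 and 1873 peaks in all, so a missing peak says little about a gene. No peak named Aldh1a1, Aldh1a2, Aldh1a3, Crabp1, Crabp2 or Cyp26b1. By position, an ATAC peak in an intron of Aldh1a1 (chr19:20536563-20536840, fold enrichment 3.87) stood in the Ts65Dn list and an overlapping one (3.35) in the Ts65Dn;Brwd1+/- list, both named for C730002L08Rik on the other strand.

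The sequences of 5 ATAC peaks are printed, 1 that all 3 lists share and 4 with no overlapping peak in the euploid ATAC list. Coordinates are mm10, read as counted from 1, on the plus strand, and capitals mark TGANTCA, the letters to which AP-1 factors such as FOS bind, a motif chosen after the sequences had been read.
Rdh10 intron, euploid list, chr1:16130141-16130383: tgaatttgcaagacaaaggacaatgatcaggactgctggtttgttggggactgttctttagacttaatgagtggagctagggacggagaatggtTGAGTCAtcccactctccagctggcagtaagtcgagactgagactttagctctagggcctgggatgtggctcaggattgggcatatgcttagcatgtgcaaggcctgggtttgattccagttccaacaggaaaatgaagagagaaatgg
Rdh10 upstream, Ts65Dn list, chr1:16105233-16105480: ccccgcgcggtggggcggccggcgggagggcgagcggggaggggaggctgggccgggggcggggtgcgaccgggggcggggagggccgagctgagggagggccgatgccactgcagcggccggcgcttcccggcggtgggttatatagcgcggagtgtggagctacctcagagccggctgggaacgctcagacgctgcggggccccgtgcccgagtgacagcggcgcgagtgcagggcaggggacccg
Rara intron, Ts65Dn;Brwd1+/- list, chr11:98969740-98970020: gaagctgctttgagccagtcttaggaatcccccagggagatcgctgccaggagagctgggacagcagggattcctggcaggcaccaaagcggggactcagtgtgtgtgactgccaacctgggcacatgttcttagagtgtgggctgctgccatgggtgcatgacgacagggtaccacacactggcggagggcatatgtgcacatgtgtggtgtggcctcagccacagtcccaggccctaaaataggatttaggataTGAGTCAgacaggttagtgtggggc
Rarb intron, Ts65Dn list, chr14:16519648-16519863: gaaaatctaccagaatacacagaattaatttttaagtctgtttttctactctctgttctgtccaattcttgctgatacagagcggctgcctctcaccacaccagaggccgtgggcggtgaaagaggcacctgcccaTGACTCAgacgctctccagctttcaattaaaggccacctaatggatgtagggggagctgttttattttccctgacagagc
Rarb intron, Ts65Dn list, chr14:16599335-16599562: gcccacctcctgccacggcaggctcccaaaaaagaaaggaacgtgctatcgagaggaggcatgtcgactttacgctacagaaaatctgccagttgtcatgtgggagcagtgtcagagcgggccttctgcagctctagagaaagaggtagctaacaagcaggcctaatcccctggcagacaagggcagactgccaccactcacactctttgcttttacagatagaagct
TGANTCA stood in 3 of these 5. Within 300 bases about the centre it stood in 8.72, 11.2 and 12.8% of the euploid, Ts65Dn and Ts65Dn;Brwd1+/- ATAC peaks, so it was not rare. None of the 5 held any of the 6-letter receptor sites on either strand, and none of the 300-base windows about the 13 ATAC peaks that named a member held a DR5, DR2 or DR1. A DR5 was rare in the lists as well, in 1 of 15479, 6 of 29154 and 5 of 30209 windows.

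At Rdh10, the intron peak was in all 3 ATAC lists, with fold enrichments of 3.90 (euploid), 4.44 (Ts65Dn) and 3.95 (Ts65Dn;Brwd1+/-). The upstream peak of the Ts65Dn list had its centre at -418 bases from the start (fold enrichment 3.23, q = 4.51e-11). It overlapped a longer peak of the Ts65Dn;Brwd1+/- list that reached to the same last base and was named for the neighbour Rpl7. A euploid peak also named for Rpl7 (chr1:16104658-16105093, fold enrichment 3.29, q = 3.67e-09) ended short of the Ts65Dn peak and overlapped the longer one, so all 3 lists had a peak that reached to within 1 kb of the start. The SMARCA2/4 peaks of Rdh10 were both in the euploid list, in exonic sequence near the start, each at a fold enrichment of 4.27 (q = 0.00068).

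Rara held most of the peaks that named a member, 19 in all. The euploid SMARCA2/4 list had 10, in introns and coding exons, with fold enrichments from 2.79 to 4.91, the Ts65Dn list had none and the Ts65Dn;Brwd1+/- list had 2 in an intron. Of these, 1 had a fold enrichment of 5.20 (q = 2.53e-05) and the other 3.41 with q = 0.343, which would not pass a q of 0.05. The ATAC lists had no euploid peak, 3 Ts65Dn peaks and 4 Ts65Dn;Brwd1+/- peaks. The 3 Ts65Dn peaks all overlapped a Ts65Dn;Brwd1+/- peak, with fold enrichments of 4.39, 2.94 and 4.41 against 3.92, 2.69 and 3.25. The peak printed above overlapped a euploid SMARCA2/4 peak (chr11:98969949-98970093, fold enrichment 3.41), and the fourth Ts65Dn;Brwd1+/- ATAC peak (chr11:98940329-98940733, 2.63) overlapped SMARCA2/4 peaks of the euploid and the Ts65Dn;Brwd1+/- lists.

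Rarb was named by 1 euploid SMARCA2/4 peak (chr14:16519815-16519895, fold enrichment 3.52, q = 0.0199) and by both printed ATAC peaks of the Ts65Dn list (3.05 and 3.98). The SMARCA2/4 peak overlapped the ATAC peak that holds TGACTCA. All 3 were intronic and lay 219708 to 299401 bases from the start that the annotation gives as outermost, and none covered the promoter with the DR5. Of the 61 other pathway genes, the SMARCA2/4 lists named 17, 2 and 1 and the ATAC lists 14, 25 and 23. Of the genes tested in the cultures these lists named 38.6, 4.14 and 4.89% and 53.3, 66.0 and 65.6%. Only 39 of the 61 were tested there, so the 2 bases differ and nothing is read from the counts. The ATAC lists held 15521, 29195 and 30244 peaks in all, so both assays' lists differed in size between genotypes, and with 1 list per genotype no difference in accessibility or binding could be tested.

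**Figure D4:**
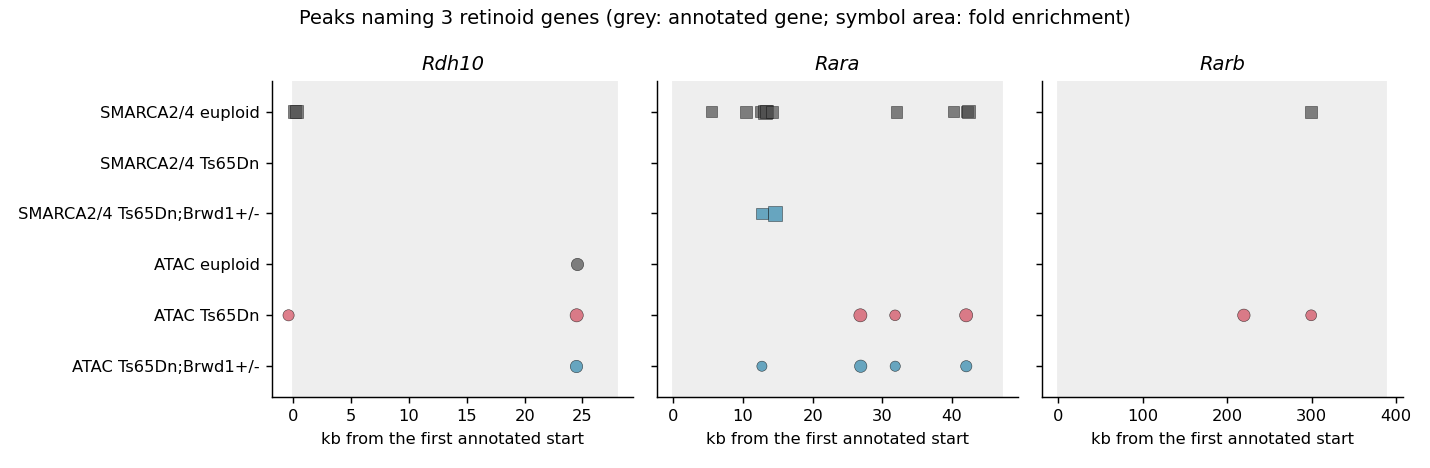
Peaks naming Rdh10, Rara and Rarb in the 6 lists (vertical axis) by the distance of their centre from the outermost annotated start in kb (horizontal axis, grey for the annotated gene), with squares for SMARCA2/4, circles for ATAC and symbol area for fold enrichment. Rara had 10 SMARCA2/4 peaks in euploid and none in Ts65Dn, and no ATAC peak in euploid against 3 and 4 in the trisomic lists.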

How the data were processed

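Members and gene lists were chosen with earlier results of these data known. Culture RNA was given as deposited read counts per gene, which per the labels and methods the authors made with HISAT2 and featureCounts on mm10 with an Ensembl annotation. Lines that name no gene took 37.5 to 40.0% of each file and were left out. Of 52636 gene IDs 99.7% were found in the annotation. The authors' deposited peak lists gave for each merged peak a fold enrichment (a ratio over background) and a q-value, with the named gene. How replicates were merged is not given in the sources used here. Counts of all 9 culture libraries were fitted in edgeR 4.0.16 (R 4.3.3; TMM, filterByExpr, glmQLFit and glmQLFTest, Benjamini-Hochberg over 17173 genes, threshold 0.05), with genotype as the only term. CPM and RPKM used TMM-scaled library sizes, and log2 CPM for correlations a prior count of 2. Nothing in the labels says that same-genotype libraries came from separate embryos; the methods say embryos were cultured individually, while the labels call the libraries pooled. P-values measure the spread between these libraries only.

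Libraries of euploid and Ts65Dn with the same replicate number deviated together (correlations of deviations from the group means 0.129, 0.206 and 0.263), so a fit with the replicate number as a block was made, on all libraries and on these 6. Other alternatives were DESeq2 1.42.0 (Wald test and size factors), other count filters, an adjusted p of 0.1, 2 genotypes at a time, 1 factor of unwanted variation and leaving out each library. Intervals and floors (3 counts over a group) cover counting error only. Pathway genes were named as up to 4 per role with the greatest absolute log2 fold change among those past the threshold, plus those moving against their role. Some of the pathway genes are counted but not reported here by name. Likeness was Pearson's r among genes with a mean of at least 1 CPM, naming 10 for Aldh1a1 and 3 for each other member. Sequences came from RefSeq (GRCm38.p6) and the reference genome of the same build (Python 3.11.15, pyfaidx 0.9.0.4).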

Additional observations from a re-analysis of the deposited data

How the results depend on the processing

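Of 389 alternative values of the members' log2 fold changes 388 moved by less than 1 SD between replicates and none changed the sign of a called value. Calls near the threshold did change. Cyp26b1 lost its call between the trisomic groups in some alternatives. In some, calls were gained by Crabp1 in Ts65Dn against euploid, and by Cyp26b1 and Rara in the labelled Ts65Dn;Brwd1+/- group against euploid. The numbers of members past the threshold thus depend on the setting. The 1 value that moved further was Aldh1a1 in the labelled Ts65Dn;Brwd1+/- group against euploid, at -0.92 without replicate 3 of that group, and the cause was not tested. Aldh1a1 ran from 2.58 to 2.69 in Ts65Dn against euploid and from -3.53 to -3.38 between the trisomic groups. The 52 results on named pathway genes kept their direction in all 845 alternative values and lost the call in 39. Genes called numbered 8017, 9980 and 5008 in Ts65Dn against euploid, the labelled Ts65Dn;Brwd1+/- group against Ts65Dn and against euploid, with 6667 to 7894, 8526 to 10164 and 3707 to 5761 without 1 library, and pathway genes 22, 29 and 16, with 19 to 24, 27 to 30 and 13 to 18. With the replicate block they were 8349, 10268 and 5397 genes and 24, 30 and 17 pathway genes, and on the 6 euploid and Ts65Dn libraries alone, a fit chosen after seeing the data, 7737 and 22. For the labelled Ts65Dn;Brwd1+/- libraries the correlations at the same number were mixed in sign (0.279, -0.125 and 0.206 with Ts65Dn, and 0.096, -0.162 and 0.186 with euploid). Whether libraries with the same number were paired is not given in the sources used here. DESeq2 called 7717, 9695 and 5003 genes. For peaks, the euploid SMARCA2/4 list named members in 11 peaks in place of 13 with q under 0.05 and fold over 1.2 and in 9, without the Rarb peak, with q under 0.01, and the labelled Ts65Dn;Brwd1+/- SMARCA2/4 list in 1 in place of 2 with either. By position within 10 kb the ATAC peaks were 4 in place of 1 in euploid, 13 in place of 7 in Ts65Dn and 10 in place of 5 in Ts65Dn;Brwd1+/-. Depth limits Aldh1a2, with 19, 3 and 1 counts per group, and Crabp2, with 33, 33 and 27.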
